A study of Mus musculus with 88 samples.

Results

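Long noncoding RNAs known for high levels in the brain were followed across 3 brain regions, 2 inbred mouse strains and the outcome of chronic social defeat stress (CSDS). Their rows were found through the Ensembl identifiers of 10 gene symbols, Meg3, Rian, Mirg, Malat1, Neat1, Miat, Snhg11, Snhg14, Peg13 and Kcnq1ot1. All 10 had a row among the 48795 genes of the bed nucleus of the stria terminalis (BNST). Of these, 8 had a row among the 18946 genes of the medial prefrontal cortex (mPFC) and the 19559 genes of the ventral hippocampus (vHPC), while Meg3 and Rian were not analysed here in those regions.

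The animals were male mice labelled C57BL/6Crl (B6) and DBA/2Crl (D2), which the study calls C57BL/6NCrl and DBA/2NCrl. All were labelled as 8 weeks old, without a transgene or drug in any group. Stressed mice had been defeated repeatedly by CD1 aggressors and were called resilient or susceptible from their later social approach, compared with unstressed controls of their own strain. Tissue was taken days after the final defeat, and each of the 88 libraries came from 1 region of 1 of 81 mice. The mPFC was read in 6 control, 6 resilient and 6 susceptible B6 mice and in 6 control and 8 susceptible D2 mice. BNST libraries came from 5 B6 mice of each phenotype and, for D2, from 5 controls, 3 resilient animals and 5 susceptible ones. vHPC libraries came from 6 B6 controls, 8 resilient and 3 susceptible B6 animals, 6 D2 controls and 5 susceptible D2 animals. RNA had been cleared of ribosomal RNA rather than selected by poly(A), so that nuclear RNAs were kept. The depletion and library kits differed between the regions, and region and kit cannot be told apart.

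These RNAs act in the nucleus and in imprinted domains. Malat1 gathers in nuclear speckles, which hold splicing factors, and Neat1 is the scaffold around which paraspeckles form. Meg3, Rian and Mirg are expressed from the maternal copy of the Dlk1-Dio3 domain, where Rian carries small nucleolar RNAs (snoRNAs) and Mirg carries microRNAs. Snhg14 is read from the paternal copy of the Prader-Willi and Angelman domain, hosts the Snord115 and Snord116 snoRNA repeats, and in neurons runs antisense to Ube3a. Kcnq1ot1 is a paternal RNA that silences its neighbours in cis, and Peg13 is a paternal RNA from an intron of Trappc9. Snhg11 hosts snoRNAs and is rich in neurons, and Miat is a nuclear RNA of neurons.

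Malat1 and Neat1 lie close together on the minus strand of chromosome 19, at chr19:5795690-5802672 and chr19:5824708-5845478 of GRCm38, each with a single exon block. Malat1 and the long form of Neat1 end in a triple helix in place of a poly(A) tail, and stretches near these 3′ ends are shown. The GENCODE M21 transcripts are given 5′ to 3′, written as DNA, with capitals for the letters TTTTGCTTT and AAAGCAAAA of a U-rich and an A-rich tract, and in Malat1 also for a U-rich tract further upstream. The Malat1 stretch covers bases 6586 to 6706 of 6983, and the Neat1 stretch bases 20659 to 20771 of 20771. In the annotated transcripts, 292 bases follow the A-rich tract of Malat1 and 0 that of Neat1.
Malat1: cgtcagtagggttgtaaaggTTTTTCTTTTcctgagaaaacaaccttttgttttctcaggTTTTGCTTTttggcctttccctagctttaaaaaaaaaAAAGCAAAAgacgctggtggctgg
Neat1: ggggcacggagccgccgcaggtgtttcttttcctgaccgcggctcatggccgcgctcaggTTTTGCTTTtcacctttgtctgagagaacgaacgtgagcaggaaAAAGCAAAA
The letters TTTTGCTTT, searched on the transcript strand alone, occurred in a transcript of 2433 of 55341 annotated genes (4.4%). They were followed within 100 bases by AAAGCAAAA in 10 genes, Malat1 and Neat1 among them.

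The length of each stretch of exon sets how many reads a transcript collects, so levels of different RNAs were set side by side as log2 RPKM (the read number scaled to exon length and library size), averaged over all mice of a region. Malat1 stood first in every region, at 10.41 (mPFC), 9.98 (BNST) and 9.37 (vHPC). Per length it ranked as gene 6, 17 and 7 from the top. Snhg11 followed, at 6.57, 6.90 and 6.77. Peg13 came to 5.6, 5.96 and 5.5. Miat stood at 5.38 in the mPFC and 6.32 in the vHPC but at 3.21 in the BNST, and 30.4% of its exon bases are shared with other genes, so that its level is less certain than the rest. Snhg14 came to 4.86, 3.91 and 4.75, Mirg to 3.5, 3.81 and 3.97, and Kcnq1ot1 to 3.39, 2.98 and 2.84. Meg3 stood at 2.79 and Rian at 2.2 in the BNST.

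Averaged over the mice of both strains, Neat1 did not bear out the label of an abundant RNA. Its mean log2 RPKM was 0.97 (mPFC), 1.32 (BNST) and 0.80 (vHPC), the lowest of the members in each region. Over all mice, between 27.9% and 38.6% of genes were lower per length. By read number alone (CPM, counts scaled to library size), Neat1 exceeded 69.7% to 78.2% of genes. Its exon length of 20771 bases covers 4 annotated transcripts, so reads from shorter forms would be understated per length.

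**Figure D1:**
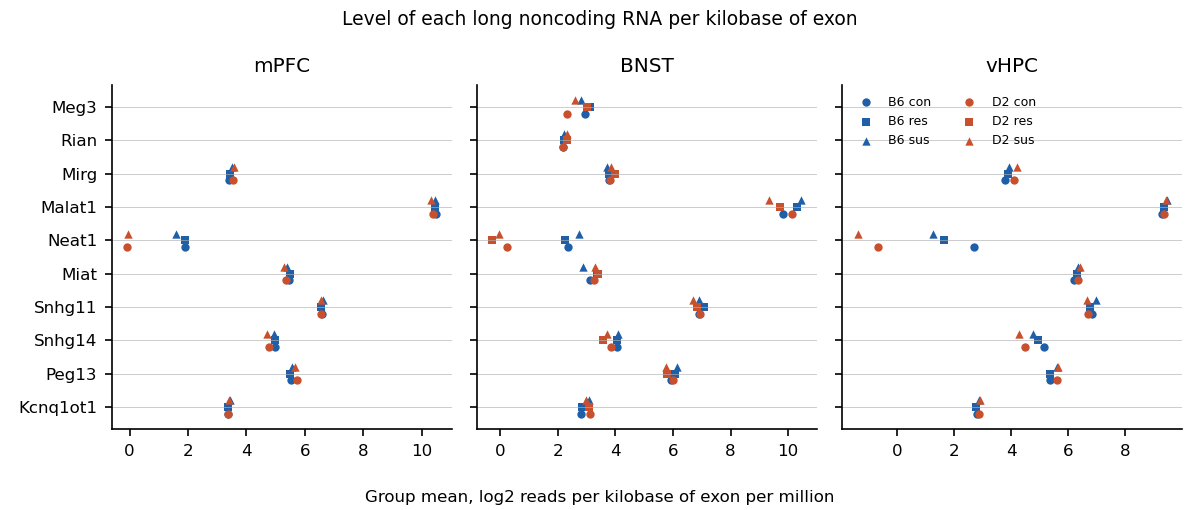
Group means of log2 RPKM (x axis) for each long noncoding RNA (y axis) in the 3 regions. Blue marks are B6 and orange marks D2, with circles for controls, squares for resilient and triangles for susceptible mice. Malat1 lies near 10 and Neat1 shows the widest gap between the strains.

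A few facts about the libraries bear on what follows. BNST libraries held 11825757 to 25793910 counts. Between 4.8% and 26.7% of those counts fell on the mitochondrial ribosomal RNAs, and the highest shares were those of B6 susceptible replicate 3 (25.3%) and D2 control replicate 2 (26.7%). In the vHPC, B6 controls shared none of the 10 library preparation sets with B6 resilient, B6 susceptible or D2 control mice. No set thus compares these groups directly, and a fit with the sets separates them only through other groups and with little precision. The deposited vHPC values had already been corrected for these sets, which could itself have shifted differences between the groups. In the mPFC, 4 of 5 sets held both arms of every comparison, and in the BNST both sets did. D2 reads were mapped to the B6 reference genome, so lower expression in D2 and poorer mapping of D2 reads cannot be told apart for any strain difference below.

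Unstressed D2 and B6 mice differed in Neat1 more than in any other member. The mPFC B6 controls ran from 6.08 to 6.59 log2 CPM around a median of 6.22. The mPFC D2 controls ran from 4.08 to 4.59 around 4.31. No D2 mouse reached the lowest B6 mouse. In the BNST, the B6 controls stood at 5.98, 6.22, 6.98, 6.74 and 7.66, and the D2 controls at 4.23, 4.02, 4.75, 4.99 and 5.08. These groups did not overlap either. In the vHPC, the B6 controls ran from 6.78 to 7.57 around 7.07, while the D2 controls ran from 3.39 to 4.16 around 3.63. The gap was thus seen in every region. Neat1 was 3.88-fold lower in D2 in the mPFC (log2 fold change -1.96, SE 0.101, limma adjusted p = 2.32e-15). In the BNST it was 4.50-fold lower (-2.17, SE 0.261, edgeR adjusted p = 2.18e-06). In the vHPC it was 10.3-fold lower (-3.36, SE 0.192, limma adjusted p = 7.42e-14).

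The strain difference in Neat1 was also present in susceptible mice. It came to -1.65 for mPFC libraries (SE 0.0947, limma adjusted p = 2.34e-14), -2.77 for BNST libraries (SE 0.267, edgeR adjusted p = 5.93e-08) and -2.65 for vHPC libraries (SE 0.243, limma adjusted p = 3.08e-09). Within library preparation sets, D2 controls were lower in 4 of 4 sets of the mPFC (-2.26 to -1.79) and in 2 of 2 sets of the BNST (-2.18 to -1.99). In the vHPC no set held both groups of controls. The single set with susceptible mice of both strains gave -2.04.

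**Figure D2:**
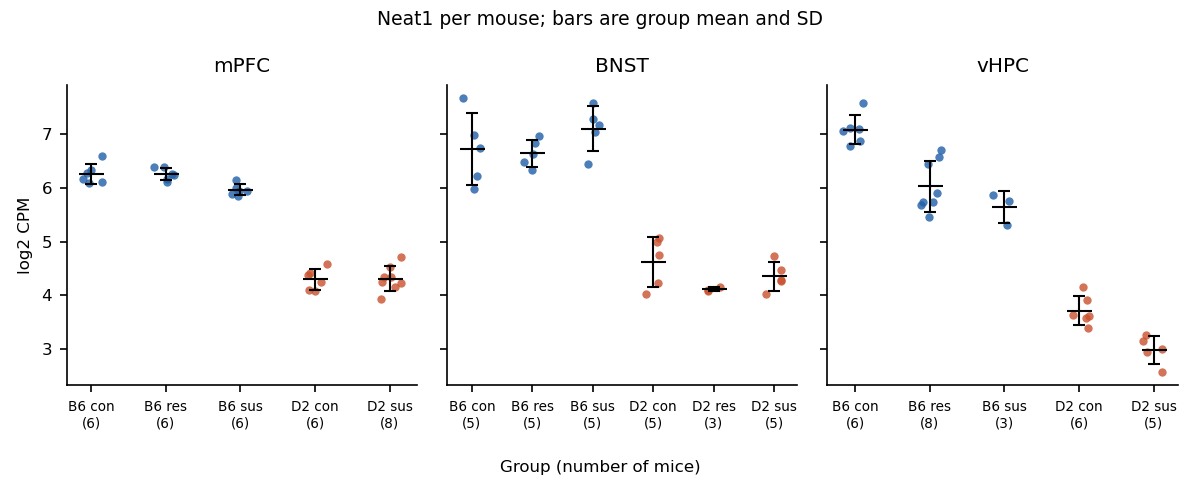
Neat1 in log2 CPM (y axis) for each mouse by group (x axis, number of mice in brackets) in the 3 regions, with black bars for the group mean and SD. The D2 mice, between 2.58 and 5.08, lie below every B6 mouse of the same region.

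Markers of myelinating oligodendrocytes moved with Neat1 in part. In D2 controls all 10 of 10 markers were lower than in B6 controls in the mPFC (median log2 fold change -0.85) and in the vHPC (-1.20). In the BNST controls, 0 of 10 passed the edgeR test (2 at an unadjusted p under 0.05) and their median was 0.53. Neat1 was 4.50-fold lower in D2 there. Among susceptible mice of the mPFC, 0 of 10 markers passed and Neat1 differed by -1.65. The summed log2 CPM of the markers ran from 10.71 to 11.65 in B6 controls of the mPFC and from 10.15 to 10.69 in D2 controls. The sums ran from 11.45 to 12.99 and from 11.84 to 13.54 in the BNST controls, and from 11.78 to 11.95 and from 10.45 to 11.09 in the vHPC controls. Other markers moved too in the vHPC, where 8 of 8 endothelial markers (median -0.64) and 7 of 7 choroid plexus markers (-2.37) were lower in D2 controls. The choroid plexus sums there overlapped widely, at 5.58 to 11.10 in B6 and 4.86 to 9.15 in D2. Astrocyte sums of the vHPC were lower in D2 without overlap, at 12.50 to 12.63 and 12.32 to 12.43. Neuronal sums of the vHPC went the other way without overlap, at 12.07 to 12.22 in B6 and 12.29 to 12.41 in D2. Microglial sums did not overlap between the controls, at 8.47 to 8.54 in B6 and 7.97 to 8.10 in D2 in the vHPC, and at 8.09 to 8.27 and 7.90 to 8.07 in the mPFC. Endothelial sums of the mPFC, at 8.25 to 8.38 and 8.143 to 8.22, did not overlap either. In the BNST controls the sums of each of these cell types overlapped, with microglia at 8.17 to 8.63 in B6 and 8.10 to 8.37 in D2. The part of these cells in the Neat1 difference was not tested. In bulk tissue, fewer cells of a type and less RNA per cell cannot be told apart.

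Across all members, the controls of the mPFC differed in 4 of 8, against 27.8% of all genes called at an adjusted p under 0.05. Mirg and Peg13 were higher in D2, and Neat1 and Snhg14 were lower. In the BNST controls, 1 of 10 members (Neat1) was called, lower in D2, against 1.38% of genes called lower. In either direction, 439 of 17515 genes were called there. In the vHPC controls 5 of 8 were called, against 59.3% of genes. Here Mirg, Peg13 and Kcnq1ot1 were higher in D2, and Neat1 and Snhg14 lower. With so many genes called in the vHPC, the members' share lay near the background. The median log2 fold change of the members was -0.05 (mPFC), 0.08 (BNST) and 0.07 (vHPC), beside 0.0016, 0.04 and 0.0068 over all genes tested.

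Among susceptible mice, D2 and B6 differed in 2 of 8 members in the mPFC (Neat1 and Snhg14, both lower in D2), against 9.7% of genes called lower. In either direction, 3317 of 18946 genes were called there. In the BNST, 2 of 10 differed (Neat1 and Malat1, both lower in D2), against 3.56% of genes called lower and 907 of 17515 called in either direction. In the vHPC 4 of 8 differed, with Mirg higher and Neat1, Snhg11 and Snhg14 lower in D2, against 32.7% of genes.

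**Figure D3:**
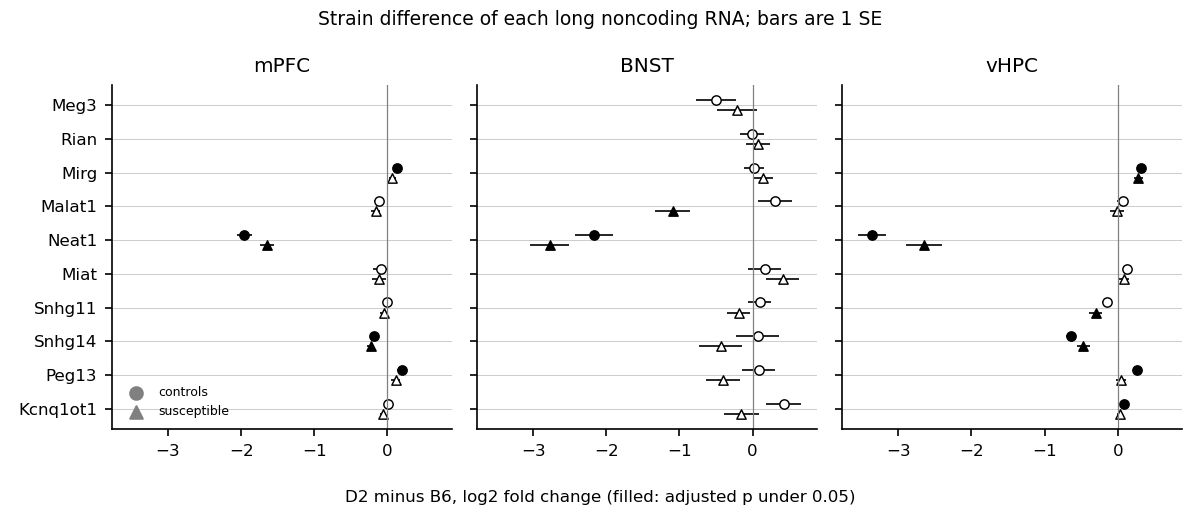
D2 minus B6 log2 fold change (x axis) of each long noncoding RNA (y axis) by region, for controls (circles) and susceptible mice (triangles), with bars of 1 SE and filled marks at an adjusted p under 0.05. Neat1 lies between -1.65 and -3.36 in every panel.

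Snhg14 was modestly lower in D2 mice of the mPFC and vHPC. The mPFC B6 controls ran from 9.59 to 9.86 log2 CPM around 9.65, and the D2 controls from 9.40 to 9.54 around 9.48. The groups lay close together without overlap, and D2 was 1.1-fold lower (-0.19, SE 0.0494, limma adjusted p = 0.00456). The vHPC B6 controls ran from 9.67 to 10.02 around 9.83, and the D2 controls from 9.07 to 9.33 around 9.22. This gap was larger, at 1.56-fold (-0.64, SE 0.0682, limma adjusted p = 1.09e-08). In the BNST, the B6 controls stood at 8.96, 8.90, 8.72, 8.46 and 8.75, and the D2 controls at 8.19, 10.16, 8.17, 7.78 and 8.45. The high D2 value belongs to replicate 2, whose mitochondrial ribosomal RNA share was also the highest. With that mouse in the fit, the difference was 0.07 (SE 0.293, edgeR adjusted p = 0.940), and without it and B6 susceptible replicate 3, 2 of 10 members were called, Neat1 and Snhg14. Of all genes, 580 of 17434 were called in that smaller fit.

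Snhg14 spans 667836 bases at chr7:59307924-59975759 on the minus strand, and 208 annotated snoRNA genes lie inside it. Of these, 130 are copies of 79 bases and 68 are copies of 94 bases. Within each size a copy differs from the commonest letters at a median of 1 base, and 93 and 50 of them have an identical twin. Counts on such copies are uncertain, because reads can fit several of them, and the copies are not separate observations. The sequences of 4 copies of 79 bases are shown, chosen after their values were seen, with capitals at the bases that differ from the commonest letter of the 130 copies. They are given 5′ to 3′ from GENCODE M21, with positions in GRCm38 on the minus strand.
Gm25156, chr7:59353283-59353361: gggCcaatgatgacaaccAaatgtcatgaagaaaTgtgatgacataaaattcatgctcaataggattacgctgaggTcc
Gm25229, chr7:59414091-59414169: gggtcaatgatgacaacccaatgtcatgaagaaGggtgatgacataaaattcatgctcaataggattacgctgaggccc
Gm26498, chr7:59386081-59386159: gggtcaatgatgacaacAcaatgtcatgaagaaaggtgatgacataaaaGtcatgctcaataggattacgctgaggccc
Gm24966, chr7:59344073-59344151: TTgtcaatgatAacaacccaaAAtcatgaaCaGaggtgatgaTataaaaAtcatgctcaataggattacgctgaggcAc
They differ from the commonest letters at 4, 1, 2 and 10 bases.

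The snoRNA genes split in both directions while their host moved little. In the mPFC, 38 of the 208 were in the table, and in D2 controls 10 were higher and 16 lower, from -5.92 to 3.3 on the log2 scale around a median of -0.62. Over the whole mPFC table, 27.8% of genes were called between controls. Gm25156, with 4 bases off the commonest letters, ran from 5.02 to 6.4 log2 CPM in B6 controls and from -1.48 to 0.37 in D2 controls. It was lower in D2 (-5.92, SE 0.359, limma adjusted p = 7.85e-14). Gm25229, with 1 base off, ran from -2.73 to -0.83 in B6 controls and from 0.91 to 2.55 in D2 controls, and was higher in D2 (3.3, SE 0.338, limma adjusted p = 6.63e-09). Values below 0 rest on few or no reads. Gm24966, the copy most unlike the others, ran from 1.7 to 2.46 in B6 and from 1.89 to 2.56 in D2, and those ranges overlapped.

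In the vHPC, 16 snoRNA genes were in the table, of which 2 were higher and 11 lower in D2 controls, around a median of -6.16. Over the whole vHPC table, 59.3% of genes were called between controls. Gm26498 had the widest gap, from 4.57 to 5.34 in B6 controls and from -5.49 to -3.86 in D2 controls (-9.90, SE 0.226, limma adjusted p = 6.70e-22). Gm24966 was lower in D2 by less (-0.66, SE 0.0708, limma adjusted p = 1.24e-08), close to the difference of Snhg14 itself (-0.64). In the BNST, 7 were tested and 0 of them were called between controls by edgeR (1 at an unadjusted p under 0.05), with differences from -0.17 to 1.49. Among susceptible D2 mice 3 were lower, against 3.56% of genes called lower. In the mPFC, 0 snoRNA genes of the span were called by limma in any comparison of phenotypes within a strain, where 0 to 6 had an unadjusted p under 0.05.

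**Figure D4:**
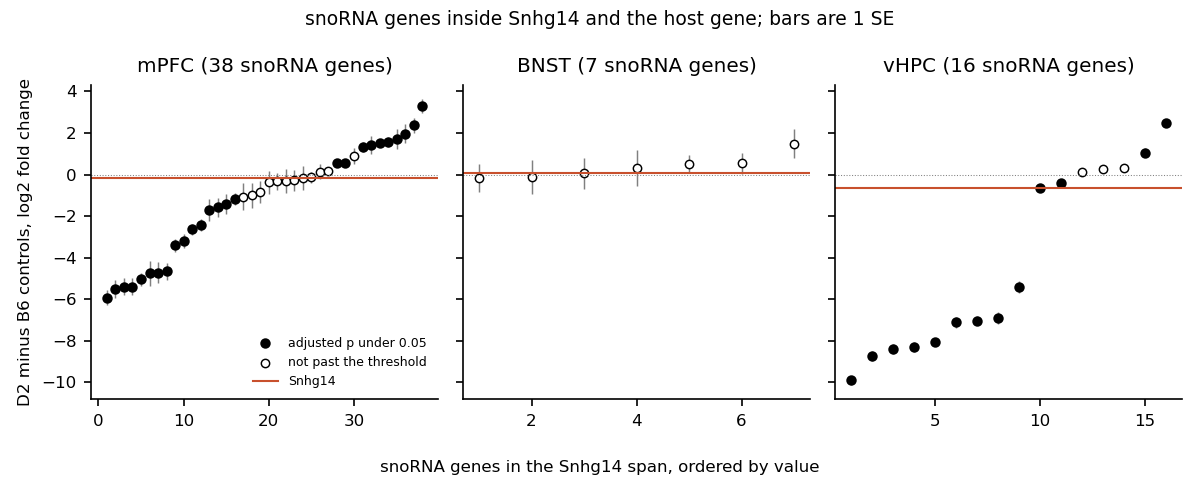
D2 minus B6 log2 fold change in controls (y axis) of each snoRNA gene inside Snhg14, ordered by value (x axis), with bars of 1 SE and filled marks at an adjusted p under 0.05. The orange line is Snhg14 itself, at -0.19 (mPFC), 0.07 (BNST) and -0.64 (vHPC).

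Of the other genes of the Prader-Willi and Angelman domain, 9 were tested in the mPFC, and 2 were lower in D2 controls (Atp10a, a phospholipid flippase, at -0.31, and Snrpn, a splicing factor, at -0.19). In the BNST, 0 of 10 were called between controls, and 0 had an unadjusted p under 0.05. In the vHPC, 1 of 11 was higher and 8 were lower, the widest being Oca2, a pigment protein, at -2.90 and Gabra5, a GABA receptor subunit, at -1.07. Within groups, the gene whose level followed Snhg14 most closely was Ube3a, the ubiquitin ligase gene that Snhg14 runs antisense to, with a mean r of 0.836 over the 3 regions (88 libraries, 13399 genes compared). Lztfl1 (0.829) and Chic1 (0.826) came next. These coefficients are descriptions, and the values share libraries and depth.

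Mirg, the microRNA host at chr12:109729764-109749460 on the plus strand, was slightly higher in D2. The mPFC controls ran from 6.18 to 6.37 log2 CPM in B6 and from 6.32 to 6.5 in D2, and the groups overlapped (0.14, SE 0.0468, limma adjusted p = 0.0292). Leaving out 1 mouse at a time ended this call for 6 of 12 mice (adjusted p from 0.0159 to 0.0773). The library preparation set as a covariate (limma adjusted p = 0.0549), quantile normalization (0.0547) and a fit of only the groups compared (0.0726) ended it too. In the vHPC, the B6 controls ran from 6.57 to 6.72 around 6.62, and the D2 controls from 6.90 to 7.06 around 6.93. These did not overlap, and D2 was 1.25-fold higher (0.32, SE 0.0494, limma adjusted p = 4.64e-06). In the BNST, the difference was 0.02 (SE 0.132, edgeR adjusted p = 0.962).

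The span of Mirg holds 14 annotated microRNA genes on its own strand, of which 6 were in the vHPC table. The mature products of the 3 that differed between vHPC controls are shown, 5′ to 3′ as RNA from RefSeq (GRCm38.p6), with the seed (bases 2 to 8) in capitals.
mmu-miR-154-5p: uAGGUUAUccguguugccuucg
mmu-miR-154-3p: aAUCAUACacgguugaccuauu
mmu-miR-496a-5p: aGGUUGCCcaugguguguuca
mmu-miR-496a-3p: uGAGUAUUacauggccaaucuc
mmu-miR-453: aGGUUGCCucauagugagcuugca
The 5p product of miR-496a and miR-453 share the seed GGUUGCC. Mir154 ran from -0.38 to 0.43 log2 CPM in B6 controls of the vHPC and from 0.53 to 1.28 in D2 controls (0.83, SE 0.138, limma adjusted p = 1.36e-05). Mir496a was higher in D2 by 0.48 (SE 0.108, limma adjusted p = 0.000477). Mir453 ran from 1.65 to 2.02 in B6 and from 1.38 to 1.82 in D2, and was lower by 0.25 on the log2 scale (log2 fold change -0.25, SE 0.0859, limma adjusted p = 0.0162). The genes that share a seed thus differed in opposite directions. All these levels are low, and reads on a microRNA gene here cannot be told apart from reads of the host transcript, so they are no measure of the mature microRNA.

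Meg3 and Rian could be read in the BNST only. Meg3 stood at 6.71, 7.12, 7.43, 7.78 and 6.54 log2 CPM in B6 controls, and at 7.24, 5.06, 6.76, 7.05 and 6.46 in D2 controls. The groups overlapped, and the lowest value belonged to D2 control replicate 2 (-0.50, SE 0.277, edgeR adjusted p = 0.438). Rian stood at 6.54, 6.53, 6.47, 6.21 and 6.10 in B6 controls and at 6.44, 6.75, 6.22, 6.08 and 6.30 in D2 controls (-0.01, SE 0.159, edgeR adjusted p = 0.989). Neither RNA was called by edgeR in any BNST comparison. Rian was called between susceptible mice of the strains by limma on voom values with ComBat, where 6357 of 17515 genes were called.

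The neighbours Meg3 and Mirg rose and fell together from mouse to mouse. After each value was centred on its group mean, Pearson's r was 0.633 and Spearman's rho 0.708 over 28 BNST mice (2-sided permutation adjusted p = 0.00426 and 0.00156 over 6 relations). Without the 2 mice farthest from the median of Meg3, r was 0.815 (permutation adjusted p = 0.00036). Both also followed the log2 share of mitochondrial ribosomal RNA in part. Over all mice, rho with the share was 0.388 for Meg3 and 0.546 for Mirg (permutation adjusted p = 0.140 and 0.0229). Pearson's r was 0.0936 and 0.440. Without the 2 mice farthest from the median of the share, r was 0.739 and 0.734 (permutation adjusted p = 0.000475 for both). Without TMM scaling as well, r was 0.442 and -0.0787. The part of the share in this relation was not tested. Meg3 and Rian gave r = -0.325 and rho = -0.189 (permutation adjusted p = 0.251 and 0.545). Rian and Mirg gave r = -0.183 and rho = -0.0783 (permutation adjusted p = 0.517 and 0.716). Of other genes of the Dlk1-Dio3 domain, 4 were tested in the mPFC, where 2 were higher and 1 lower in D2 controls, Wars, a tRNA synthetase, at 0.32 and Dio3, the thyroid hormone deiodinase, at -0.83 having the largest changes. In the BNST, 0 of 5 were called by edgeR, and 0 had an unadjusted p under 0.05. In the vHPC, 3 of 4 were higher, among them Wdr25 at 0.76 and Begain, a protein of the postsynaptic density, at 0.62.

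Peg13, at chr15:72805600-72810324 on the minus strand, was higher in D2 controls of the cortex and hippocampus. In the mPFC, B6 controls ran from 7.66 to 7.86 and D2 controls from 7.77 to 8.10. The groups overlapped (0.20, SE 0.0672, limma adjusted p = 0.0253), and leaving out 1 mouse ended the call for 7 of 12 mice (adjusted p from 0.00793 to 0.0688). In the vHPC, B6 controls ran from 7.54 to 7.65 and D2 controls from 7.79 to 7.91. These groups were apart (0.26, SE 0.053, limma adjusted p = 0.000169). In the BNST, the B6 controls ran from 7.64 to 8.99 and the D2 controls from 7.47 to 8.82, with a difference of 0.08 (SE 0.228, edgeR adjusted p = 0.902). Of the 6 other genes of its domain, 2 were higher in D2 controls of the mPFC, Dennd3 at 0.64 and Kcnk9, an imprinted potassium channel, at 0.33. In the BNST, 0 of 6 were called between controls (1 unadjusted), while Kcnk9 (1.40) and Dennd3 (0.90) were higher among susceptible D2 mice. In the vHPC controls 3 were higher and 1 lower, with Kcnk9 at 0.55 and Chrac1 at 0.46.

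Kcnq1ot1, at chr7:143203458-143296549 on the minus strand, differed between strains in a single test. The vHPC B6 controls ran from 9.27 to 9.42 and the D2 controls from 9.37 to 9.47, with overlap (0.08, SE 0.0338, limma adjusted p = 0.0469). Leaving out 1 mouse ended that call for 8 of 12 mice (adjusted p from 0.0208 to 0.111). The difference was 0.0054 in the mPFC (SE 0.0448, limma adjusted p = 0.943) and 0.42 in the BNST (SE 0.242, edgeR adjusted p = 0.454). Of the genes of its domain, 2 of 8 were higher and 1 lower in D2 controls of the mPFC, with Dhcr7, the last enzyme of cholesterol synthesis, at 0.31. In the BNST 0 of 7 were called (1 unadjusted), and in the vHPC 3 of 9 were higher and 5 lower, with Tspan32 at -0.84 and Cdkn1c, an imprinted inhibitor of the cell cycle, at -0.83.

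Snhg11, at chr2:158375638-158386145 on the plus strand, gave differences of -0.01 (mPFC, SE 0.0545, limma adjusted p = 0.917), 0.10 (BNST, SE 0.157, edgeR adjusted p = 0.805) and -0.15 (vHPC, SE 0.0679, limma adjusted p = 0.0650) between controls. Among susceptible vHPC mice, B6 stood at 9.97, 10.14 and 10.11 and D2 at 9.76, 9.85, 9.66, 9.87 and 9.70. Each D2 mouse was lower (-0.30, SE 0.0859, limma adjusted p = 0.00810). Gm25129, a snoRNA gene within it and named after its values were seen, ran from 0.96 to 1.5 in B6 controls of the vHPC and from 2.51 to 2.81 in D2 controls. It was thus higher in D2 (1.39, SE 0.0937, limma adjusted p = 2.01e-12) where its host was not. Of other snoRNA host genes, 1 of 10 was higher (Snhg1 at 0.54) and 3 were lower (Snhg6 at -0.65) in D2 controls of the mPFC. In the BNST 0 of 12 were called (1 unadjusted). In the vHPC 3 of 10 were higher and 4 lower, with Snhg18 at -1.78 and Snhg6 at -1.18.

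Miat, at chr5:112213228-112229395 on the minus strand, was called in no comparison by the limma and edgeR fits. Among susceptible BNST mice it was called without TMM factors and by limma on voom values with ComBat, where 5077 and 6357 of 17515 genes were called. Between controls, D2 minus B6 was -0.09 in the mPFC (SE 0.103, limma adjusted p = 0.554), 0.17 in the BNST (SE 0.224, edgeR adjusted p = 0.766) and 0.13 in the vHPC (SE 0.0601, limma adjusted p = 0.0737). The B6 resilient mice of the BNST were the most spread, at 5.68, 6.26, 6.99, 6.41 and 7.58, where the susceptible mice stood at 6.03, 5.98, 5.94, 6.07 and 6.46. These groups overlapped (susceptible minus resilient -0.62, SE 0.225, edgeR adjusted p = 0.498).

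Malat1 did not differ past the threshold between controls of any region, with D2 minus B6 at -0.12 in the mPFC (SE 0.0664, limma adjusted p = 0.179), 0.30 in the BNST (SE 0.232, edgeR adjusted p = 0.582) and 0.07 in the vHPC (SE 0.0748, limma adjusted p = 0.468). Among susceptible BNST mice it did. The B6 mice stood at 13.03, 13.18, 13.44, 13.26 and 13.42 log2 CPM, and the D2 mice at 12.54, 12.04, 12.36, 11.84 and 12.00. The groups did not overlap, and D2 was 2.1-fold lower (-1.09, SE 0.234, edgeR adjusted p = 0.00442). The controls stood at 11.98, 12.54, 12.87, 13.25 and 12.46 in B6 and at 13.17, 13.33, 12.65, 13.21 and 12.33 in D2. Thus susceptible B6 mice averaged above their controls (0.59, SE 0.232, edgeR adjusted p = 0.709) and susceptible D2 mice below theirs (-0.81, SE 0.233, edgeR adjusted p = 0.547), although neither passed. The interaction of strain and susceptibility, the D2 change minus the B6 change, was -1.40 (SE 0.329, edgeR adjusted p = 0.0856). It passed by DESeq2 (-1.42, adjusted p = 0.00507), with a covariate for the mouse ID prefix (-1.52, edgeR adjusted p = 0.0365), without TMM factors (-0.85, edgeR adjusted p = 0.0228) and by limma on voom values with ComBat (-0.85, adjusted p = 0.0191). In the same order, 223, 80, 1416 and 2617 of 17515 genes were called, against 0 in the main fit. Without TMM factors and with voom and ComBat, the median log2 fold change over all genes was 0.53 and 0.62.

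Mitochondrial ribosomal RNA moved with Malat1. Its share of counts was 13.7% to 25.3% in susceptible B6 mice of the BNST and 4.8% to 7.94% in susceptible D2 mice, without overlap. The TMM scaling factors of the same libraries were 0.656 to 0.970 and 1.1 to 1.3. With values centred on group means, the log2 share and Malat1 gave r = 0.871 and rho = 0.856 over 28 mice (2-sided permutation adjusted p = 0.0001 for both, over 10 members, where the unadjusted 1e-05 is the smallest that the permutations can give). Within the library preparation sets r was 0.949 and 0.797 (14 mice each, permutation adjusted p = 0.0178 and 0.00465), and without the 2 mice farthest from the median of the share it was 0.867. Without TMM scaling, r over all mice was 0.691 and rho 0.681 (permutation adjusted p = 0.0078 and 0.0058), and within the sets r was 0.908 and 0.354 (permutation adjusted p = 0.118 and 0.344). Share and level are taken from the same library totals.

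With the log2 share added to the BNST model as a covariate, chosen after the values were seen, the strain difference of Malat1 in susceptible mice was -0.05 (SE 0.205, edgeR adjusted p = 0.973), and the interaction was -0.17 (SE 0.262, edgeR adjusted p = 0.965). Neat1 gave -2.93 in that fit (edgeR adjusted p = 0.000104). The shares of susceptible B6 and susceptible D2 mice did not overlap, and share and level came from the same libraries. The fit therefore cannot separate the share from the strain for either RNA. Snhg11 also followed the share over all mice (r = 0.742, rho = 0.710, permutation adjusted p = 0.00045 and 0.00055), with r = 0.869 and 0.366 within the sets (permutation adjusted p = 0.0862 and 0.360). Without TMM scaling that relation was not seen (r = 0.00411, rho = -0.122, permutation adjusted p = 0.986 and 0.626). Oligodendrocyte markers moved with Malat1 as well. Their summed log2 CPM was 12.44 to 13.51 in susceptible B6 mice and 11.14 to 12.71 in susceptible D2 mice, with 3 of 10 markers lower in D2. The astrocyte sums, at 11.94 to 12.34 in B6 and 11.23 to 11.59 in D2, and the neuronal sums, at 12.24 to 12.55 and 11.70 to 12.19, did not overlap, and 2 of 9 and 2 of 12 markers were lower in D2. Of the microglial markers 3 of 9 were lower. The part of these cells in the result was not tested.

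**Figure D5:**
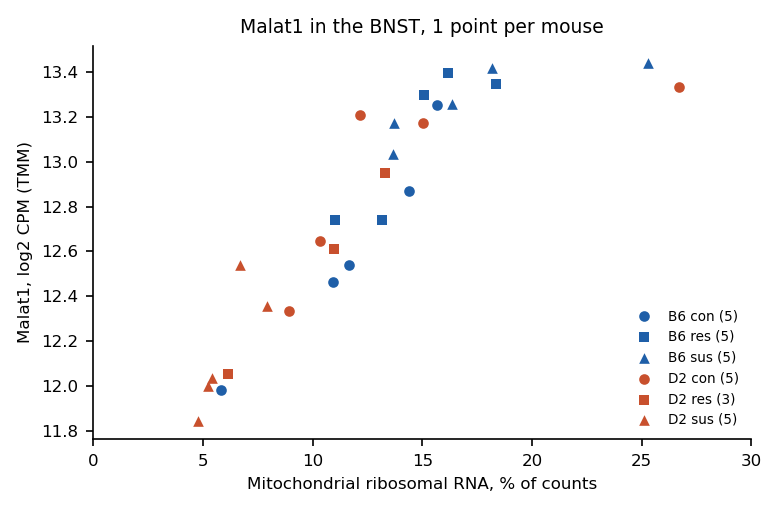
Malat1 in log2 CPM (y axis) against the share of counts on mitochondrial ribosomal RNA in percent (x axis), 1 point per BNST mouse, blue for B6 and orange for D2. Susceptible D2 mice lie at the lower left, with shares of 4.8% to 7.94%, and susceptible B6 mice at the upper right.

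Malat1 and Neat1, close neighbours with similar 3′ ends, did not vary together in every region. Centred on group means, r was 0.260 and rho 0.309 over 32 mPFC mice (permutation adjusted p = 0.312 and 0.219). In the BNST r was -0.0926 and rho -0.163 (28 mice, permutation adjusted p = 0.717 and 0.545). In the vHPC r was 0.583 and rho 0.570 (28 mice, permutation adjusted p = 0.0163 and 0.0194), which rested in part on 2 mice, since without them r was 0.450 (permutation adjusted p = 0.147). Of 9 tested genes around them on chromosome 19, Ssh3, a cofilin phosphatase, was higher (0.20) and Frmd8 lower (-0.28) in D2 controls of the mPFC. In the BNST controls, 0 of 9 were called and 0 had an unadjusted p under 0.05, where 439 of 17515 genes were called. In the vHPC 3 were higher and 3 lower, with Frmd8 at -0.63 and Ssh3 at 0.51.

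Most proteins of the bodies that these RNAs scaffold did not pass the test between controls of the mPFC and BNST. Of 17 paraspeckle proteins, 1 was higher in D2 controls of the mPFC (Rbm14 at 0.21) and 3 were lower (Tardbp at -0.14), around a median of -0.11. In the BNST controls 0 of 17 passed (1 unadjusted), and in the vHPC 6 were higher and 5 lower, among them Hnrnpa1 at 0.69. Of the nuclear speckle proteins, 1 of 16 was higher and 5 were lower in the mPFC (Srsf2, a splicing factor, at -0.40), 0 of 17 passed in the BNST (1 unadjusted), and 4 of 16 were higher and 6 lower in the vHPC. Among susceptible BNST mice, Taf15, a paraspeckle protein that binds RNA, was lower in D2 (-0.92, edgeR adjusted p = 0.0115). Of other brain long noncoding RNAs, Rpph1, the RNA of ribonuclease P, was lower in D2 controls everywhere, at -1.39 in the mPFC (limma adjusted p = 6.77e-08), -2.09 in the BNST (edgeR adjusted p = 0.0278) and -1.44 in the vHPC (limma adjusted p = 1.49e-10). It was the single member of that list called in the BNST, of 17, where 3 of 18 in the mPFC and 14 of 18 in the vHPC were called.

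The genes whose levels most resembled a member within groups are given as a description, as means of r over the 3 regions. Neat1 was most like Rassf2 (0.756), Arhgef19 (0.712) and Msn (0.705), and Malat1 like Spaca6 (0.719), Hnrnpa2b1 (0.703) and Ddx5 (0.673). Among the genes most like Peg13 were Fam219a (0.868) and Pacsin1 (0.853). Kcnq1ot1 was most like Nfat5 (0.777), 3110039I08Rik (0.766) and Nktr (0.756). Miat was most like Chrd (0.745), Asic2 (0.726) and Aifm3 (0.709), and Snhg11 like Synj1 (0.699), Ncoa7 (0.697) and Hnrnpd (0.694). Mirg was most like Ly6h (0.690), Mcf2l (0.653) and Zfr2 (0.606).

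To ask how the stress phenotype bears on these RNAs, each stressed group was compared with controls of its strain. In the mPFC, 0 of 8 members were called by limma in B6 resilient mice, where 0% of genes were called (731 at an unadjusted p under 0.05, 0 of them members). In B6 susceptible mice 0 of 8 were called, against 2.22% of genes, with 2 members at an unadjusted p under 0.05. Susceptible against resilient B6 mice gave 0 of 8, against 2.02% of genes, with 1 member at an unadjusted p under 0.05. D2 susceptible mice gave 0 of 8, where 0% of genes were called (734 unadjusted, 0 of them members). The strain by susceptibility interaction gave 0 of 8, where again 0% of genes were called (1766 unadjusted, 1 of them a member).

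The mPFC member nearest the threshold was Neat1. Susceptible B6 mice ran from 5.85 to 6.14 around 5.94, below resilient mice at 6.11 to 6.4 around 6.25 and controls at 6.08 to 6.59 around 6.22. The susceptible range overlapped both others narrowly. The difference from controls was -0.30 (SE 0.101, limma adjusted p = 0.110), and it was negative in 4 of 4 library preparation sets, from -0.66 to -0.13. In D2 it was 0.01 (SE 0.0947, limma adjusted p = 0.998), and the interaction was 0.31 (SE 0.139, limma adjusted p = 0.514). Beside it, 9 of 10 oligodendrocyte markers fell in susceptible B6 mice (median -0.73), and their part in the value of Neat1 was not tested.

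In the BNST, no member was called by edgeR in any comparison of phenotypes. B6 resilient mice gave 0 of 10, where 0% of genes were called (328 unadjusted, and 1 gene by DESeq2). B6 susceptible mice gave 0 of 10, where 0% of genes were called (1115 unadjusted, 0 by DESeq2). B6 susceptible against resilient mice gave 0 of 10, against 0.00571% of genes, which is a single gene (42 by DESeq2). D2 resilient mice gave 0 of 10 (0% of genes, 953 unadjusted, 3 by DESeq2), and D2 susceptible mice 0 of 10 (0% of genes, 1056 unadjusted, 12 by DESeq2). The interaction gave 0 of 10 (0% of genes, 2004 unadjusted, 223 by DESeq2, Malat1 among them). At an unadjusted p under 0.05, Malat1 was the single member in the B6 susceptible, D2 susceptible and interaction tests, and Miat in the test of B6 susceptible against resilient mice.

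In the vHPC, Neat1 and Snhg14 were lower in stressed B6 mice, which shared no library preparation set with their controls. In B6 resilient mice 2 of 8 members were called, both lower, against 5.9% of genes called lower. In either direction, 2120 of 19559 genes were called there. B6 susceptible mice gave 4 of 8, with Mirg and Peg13 higher and Neat1 and Snhg14 lower, against 40.6% of genes. The members' share there lay near the background. Susceptible against resilient B6 mice gave 2 of 8, Snhg11 and Peg13, both higher, against 14.1% of genes called higher. With 5404 of 19559 genes called in either direction, the members' share lay near the background. D2 susceptible mice gave 1 of 8 (Neat1, lower), against 2.74% of genes called lower and 837 of 19559 called in either direction. The interaction gave 0 of 8, against 0.782% of genes, with 2 members at an unadjusted p under 0.05 in the limma fit.

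The vHPC values of Neat1 stepped down from controls to stressed mice in both strains. Resilient B6 mice ran from 5.46 to 6.70 around 5.82, and susceptible B6 mice stood at 5.3, 5.87 and 5.75, all below the lowest B6 control at 6.78. The change was -1.05 in resilient mice (SE 0.180, limma adjusted p = 0.000205) and -1.44 in susceptible mice (SE 0.235, limma adjusted p = 5.02e-05). Susceptible D2 mice stood at 2.95, 3.00, 3.16, 2.58 and 3.26, below each D2 control. That change was -0.72 (SE 0.202, limma adjusted p = 0.0376), and leaving out 1 mouse ended the call for 8 of 11 mice (adjusted p from 0.0339 to 0.129). The interaction was 0.72 (SE 0.310, limma adjusted p = 0.230). In the single library preparation set with both D2 groups, the change was -0.32. Susceptible minus resilient B6 mice gave -0.39 over all libraries (SE 0.225, limma adjusted p = 0.194), but 0.13 in the single set that held both.

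Snhg14 was lower beside Neat1 in the B6 vHPC. Resilient mice ran from 9.40 to 9.84 around 9.66, overlapping the controls (-0.21, SE 0.0638, limma adjusted p = 0.0362). Susceptible mice stood at 9.54, 9.37 and 9.47, below every control (-0.39, SE 0.0836, limma adjusted p = 0.000804). Leaving out 1 mouse ended the call in resilient mice for 8 of 14 mice (adjusted p from 0.0151 to 0.109). In D2 the 5 susceptible mice stood at 8.95, 9.06, 9.0, 8.98 and 8.93, below each D2 control, with a change of -0.22 (SE 0.0716, limma adjusted p = 0.0894). Of the 16 snoRNA genes inside Snhg14, 10 were lower and 1 higher in resilient B6 mice, 11 lower and 1 higher in susceptible B6 mice, and 9 lower and 1 higher in susceptible D2 mice. In the same order, 2120, 7949 and 837 of 19559 genes were called. Most of these snoRNA genes are near-identical copies that can share reads, so they are not separate observations. Gm26498 had a median of 4.90 in B6 controls, 1.86 in resilient and 0.28 in susceptible B6 mice, and of -5.22 in D2 controls and -7.65 in susceptible D2 mice. Values below 0 rest on few or no reads, so that no change in D2 can be read from this gene.

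Peg13 and Mirg were higher in susceptible B6 mice of the vHPC than in controls, and Peg13 and Snhg11 higher than in resilient mice. Peg13 stood at 7.87, 7.84 and 7.85, above every control (0.26, SE 0.065, limma adjusted p = 0.00317) and higher than in resilient mice, which ran from 7.38 to 7.86 (0.23, SE 0.0622, limma adjusted p = 0.0110). Mirg stood at 6.80, 6.74 and 6.89, above the highest control at 6.72 (0.17, SE 0.0605, limma adjusted p = 0.0264), and 2 of the 9 mice, left out in turn, ended that call (adjusted p up to 0.147). Against resilient mice Mirg gave 0.05 (SE 0.0579, limma adjusted p = 0.562). Inside Mirg, Mir154 (0.74, SE 0.169, limma adjusted p = 0.00147) and Mir496a (0.42, limma adjusted p = 0.0138) were higher as well. Snhg11 stood at 9.97, 10.14 and 10.11, where resilient mice lay around 9.81 and overlapped them (0.22, SE 0.0796, limma adjusted p = 0.0435). Against controls it gave 0.14 (SE 0.0832, limma adjusted p = 0.196). Leaving out 1 mouse ended the call against resilient mice for 8 of 11 mice (adjusted p from 0.0103 to 0.180). All these differences rest on 3 susceptible B6 mice.

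In the vHPC, genes chosen from the BNST moved in the D2 direction in stressed mice of both strains. In the BNST, 107 genes differed between strains by more than 3 on the log2 scale and were called, and 88 of them had a vHPC row, with a median strain difference of 4.34 there. In the vHPC, 87 of the 88 moved toward the D2 level in resilient B6 mice (median shift 1.37) and 86 in susceptible B6 mice (1.81). In susceptible D2 mice, 87 moved further in the D2 direction (1.08). As a share of the strain difference, the median shifts were 0.322, 0.453 and 0.233, where Neat1 gave 0.313, 0.428 and 0.215 and Snhg14 gave 0.320, 0.604 and 0.337. The 8 members ranged widely around those medians, from -0.146 to 1.17, from -0.920 to 2.48 and from 0.146 to 1.31. Malat1, with a strain difference of 0.07, had the highest share in all of these comparisons, and Snhg11 in susceptible B6 mice (-0.920) and Kcnq1ot1 in resilient B6 mice (-0.146) moved away from the D2 level. In the mPFC, the median shares were 0.0237 to 0.0279. The strain difference and the stress changes share the control mice, and the part of the shift in these results was not tested. Oligodendrocyte markers moved beside them, with 5 of 10 lower in resilient B6 animals, 10 of 10 in susceptible B6 animals and 2 of 10 in susceptible D2 animals. Their summed log2 CPM ran from 11.78 to 11.95 in B6 controls, from 11.31 to 11.92 in resilient and from 11.01 to 11.20 in susceptible B6 mice. In susceptible B6 mice 6 of 8 endothelial and 6 of 9 microglial markers were lower too, with sums of 8.25 to 8.42 against 8.66 to 8.85 in controls and of 8.19 to 8.27 against 8.47 to 8.54. Of the 7 choroid plexus markers 3 were lower, with a mean sum of 8.54 in controls, 7.90 in resilient and 5.75 in susceptible B6 mice, and 9 of 12 neuronal markers were higher. The part of these cells was not tested either.

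Library preparation set added to the vHPC model ended each of these calls, with 0 of 8 members called in every comparison of phenotypes, and Neat1 at -1.79 (SE 0.716, limma adjusted p = 0.9999) in resilient and -1.96 (SE 0.678, limma adjusted p = 0.239) in susceptible B6 mice. In that fit the change of Neat1 in susceptible D2 mice was -0.12 (SE 0.491, limma adjusted p = 0.989). Snhg14 gave -0.10 (SE 0.277, limma adjusted p = 0.9999) in resilient and -0.28 (SE 0.263, limma adjusted p = 0.657) in susceptible B6 mice. Within sequencing set 1 alone, Neat1 gave -0.38 (SE 0.250, limma adjusted p = 0.472) in resilient B6, -1.56 (SE 0.189, past the limma threshold) in susceptible B6 and -0.36 (SE 0.254, limma adjusted p = 0.6995) in susceptible D2 mice. The strain difference of Neat1 between controls was -4.07 with the preparation set as a covariate (limma adjusted p = 0.000969).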

How the data were processed

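RNA depleted of ribosomal RNA was sequenced from the mPFC, BNST and vHPC. The authors trimmed reads, removed duplicates, aligned them with STAR to GRCm38 and counted reads on gene exons with HTSeq, whose strand setting is not given in the sources used here. For the BNST, the authors deposited these counts. For the mPFC and vHPC, they deposited log2 CPM from voom after removing low genes. ComBat had taken out the library preparation sets and, for vHPC libraries, the sequencing sets too. Depth in those tables is therefore not visible, and region tables were never tested against each other. The main limma fits held no term for the sets and made no allowance for the earlier correction. Their p-values can therefore be too small. The library sets and mouse identifiers came from the study's sample sheet.

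Gene symbols came from GENCODE M21, which named 99.54%, 99.09% and 99.58% of the rows. The mPFC and vHPC values were fitted with limma 3.58.1 (robust empirical Bayes). BNST counts were fitted with edgeR 4.0.16 (robust quasi-likelihood, TMM factors) over 17515 genes that reached 1 CPM in 6 or more libraries. BNST levels are log2 CPM with a prior count of 0.5. Each fit held a mean per group of strain and phenotype over all libraries of a region, and genes with a Benjamini-Hochberg adjusted p under 0.05 were called. Where all called members of a comparison went 1 way, the percentage given is of genes called in that direction. SEs from edgeR were derived from its F statistic. Correlations used values centred on group means and 100000 permutations within groups. R 4.3.3, DESeq2 1.42.0, sva 3.50.0 and Python 3.11.15 were also used, and the fits were tested on simulated data. Within a region the libraries are of separate mice, and 7 mice gave libraries of more than 1 region. Replicate numbers follow deposit order and pair nothing.

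The members and gene lists were chosen with earlier results of these data known. All members were named, and from each list at most the 2 called genes of largest change per comparison. Likeness names the 3 genes of highest mean r. Some genes that these rules would name are not reported here. Alternatives covered covariates, normalization, filters, tools, groups fitted and mice left out. Fits with the mitochondrial ribosomal RNA share, or without the 2 libraries highest in it, were added after seeing the data.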

Additional observations from a re-analysis of the deposited data

Results flagged for a closer look

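Of 122 groups of 4 to 10 mice examined for a mouse far from its group by Dixon's criterion, 7 held one, where chance gives about 1 in 20. In the BNST, B6 susceptible replicate 3 was the highest of its group for Meg3 (7.534 log2 CPM, others 6.774 to 6.965) and the lowest for Rian (5.755, others 6.439 to 6.654) and Snhg14 (7.982, others 8.875 to 9.21). D2 control replicate 2 was the highest of its group for Kcnq1ot1 (10.81, others 9.141 to 9.601) and Snhg14 (10.16, others 7.776 to 8.446). These 2 libraries held 25.3% and 26.7% of their counts in mitochondrial ribosomal RNA, the highest of all 28. B6 susceptible replicate 5 was highest for Miat (6.456, others 5.939 to 6.067). In the mPFC, B6 resilient replicate 5 was highest for Mirg (6.455, others 6.221 to 6.309).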

How the results depend on the processing

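The lower level of Neat1 in D2 was called under every alternative run, in controls and in susceptible mice. Members called changed elsewhere. In the mPFC controls, 2 members (Neat1 and Snhg14) were called with only the groups compared, and 2 to 4 with each mouse left out. In the BNST, the interaction gave 1 member (Malat1) with mouse ID prefix as a covariate and by DESeq2, 2 (Malat1 and Mirg) without TMM factors and by limma on voom values with ComBat, and 0 to 1 with each mouse left out. Susceptible BNST mice gave 4 members without TMM factors, 5 with voom and ComBat, and 1 with the mitochondrial ribosomal RNA share as a covariate. BNST controls gave 2 without the 2 libraries highest in that share. In the vHPC, the library preparation set as a covariate gave 0 members in resilient B6, susceptible B6, susceptible against resilient B6 and susceptible D2 comparisons, and 1 (Neat1) between strains in controls and in susceptible mice. B6 resilient mice gave 1 member (Neat1) with the mouse ID prefix, with only the groups compared, with quantile normalization and with the sequencing set as a covariate. D2 susceptible mice gave 0 with the prefix and with the sequencing set. With only the groups compared, susceptible against resilient gave 0 and the interaction 1 (Peg13). Sequencing set 1 alone gave 0 for B6 resilient, susceptible against resilient and D2 susceptible mice, and 2 between susceptible mice of the strains. With each mouse left out, B6 resilient mice gave 1 to 2 members, B6 susceptible 3 to 5, susceptible against resilient 1 to 4, D2 susceptible 0 to 1 and the controls 4 to 6. Without the 2 mice farthest from the median, Rian and Mirg gave r = 0.2533, a change of sign, and Malat1 and Neat1 in the vHPC gave 0.4496. Except where construction shows it, the cause was not tested.

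Genes called over the whole table moved as well. Without the 2 BNST libraries highest in mitochondrial ribosomal RNA, B6 susceptible against control went from 0 to 479, susceptible against resilient from 1 to 1266, the interaction from 0 to 160 and susceptible D2 against B6 from 907 to 1648. That last count was 5077 without TMM factors, 6357 with voom and ComBat and 153 with the share as a covariate. The interaction count was 80 with the prefix, 223 by DESeq2, 1416 without TMM factors and 2617 with voom and ComBat. BNST controls went from 439 to 87 with only the groups compared, and by DESeq2 to 660. In the mPFC, B6 susceptible against control went from 420 to 39 with the library set, 0 with the prefix and 4 with only the groups compared. In the vHPC, the library set took the B6 resilient count from 2120 to 41, B6 susceptible from 7949 to 202, susceptible against resilient from 5404 to 0, D2 susceptible from 837 to 3 and controls from 11603 to 1643.

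No paired analysis was possible because replicate numbers follow deposit order and every mouse belongs to 1 group. Depth limits the snoRNA and microRNA genes, whose values lie near or below 0 on the log2 CPM scale in many libraries.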
